A study of Mus musculus with 6 samples.

Results

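Cells make cholesterol and fatty acids from acetyl-CoA along branches that share a pair of transcription factors, and the transcripts of 37 genes of these branches were followed in kidney glomeruli of mice with diabetic kidney disease. The genes were taken by name from a list of sterol enzymes, fatty acid enzymes and the factors that govern them. The rule names genes and uses no measured value, but the list was chosen with earlier results of these data known. The choice was therefore not blind to the data. All 37 were found among the 55401 genes of the deposited count table, and all 37 were among the 19717 genes with enough counts to be tested. They comprise 18 sterol enzymes, 7 regulators and sterol handling genes, and 12 fatty acid enzymes, and the branches are described separately.

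The study sequenced polyadenylated RNA of isolated glomeruli, the filtering units of the kidney, in 3 DKD and 3 Control libraries, with the stated purpose of profiling histone methyltransferases. DKD stands for diabetic kidney disease in the title of the series, and the libraries are called DKD 1 to DKD 3 and Control 1 to Control 3 after the replicate numbers of the labels. The labels give mouse, glomeruli and the group name, and the strain, age, sex, way the disease was produced, treatment of the Control mice and method of isolating glomeruli were not stated there. Nor do they say that each library came from its own animal, so the spread behind each p-value is that between libraries, which may be technical.

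Sterol regulatory element-binding proteins, encoded by Srebf1 and Srebf2, are membrane-bound precursors in the endoplasmic reticulum. When membrane sterol is low, the escort protein SCAP carries them to the Golgi, where proteases release the active factor, and when sterol is plentiful, INSIG proteins hold SCAP and its cargo back. The Srebf2 product is known mainly for driving cholesterol synthesis and the Srebf1 product for fatty acid synthesis, and in kidney the pathway has been studied for lipid build-up in diabetes.

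Active SREBPs bind sterol regulatory elements in promoters, often beside a CCAAT box, the binding sequence of the factor NF-Y. The 4 windows below are shown because they belong to the first enzyme of the sterol list, to the member with the lowest adjusted p, to the sterol enzyme with the next lowest, and to the synthase of the fatty acid branch. Each runs from 250 bases before to 50 bases after an annotated start of transcription, 5′ to 3′ on the strand of the gene, as given by RefSeq on build GRCm38.p6. Capitals mark matches to CCAAT on either strand, where ATTGG is CCAAT read on the other strand, and the single match to TCACNCCAC, a sterol element-like motif. Hmgcs1 lies at chr13:119690101-119690400 on the plus strand, Idi1 at chr13:8885356-8885655 on the plus strand, Msmo1 at chr8:64733529-64733828 on the minus strand and Fasn at chr11:120824498-120824797 on the minus strand.
Hmgcs1: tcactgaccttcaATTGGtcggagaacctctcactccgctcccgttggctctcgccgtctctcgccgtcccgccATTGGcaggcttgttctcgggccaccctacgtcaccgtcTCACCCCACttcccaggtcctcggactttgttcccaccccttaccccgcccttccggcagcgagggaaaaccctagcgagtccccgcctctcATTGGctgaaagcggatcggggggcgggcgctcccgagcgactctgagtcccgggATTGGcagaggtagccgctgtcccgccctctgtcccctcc
Idi1: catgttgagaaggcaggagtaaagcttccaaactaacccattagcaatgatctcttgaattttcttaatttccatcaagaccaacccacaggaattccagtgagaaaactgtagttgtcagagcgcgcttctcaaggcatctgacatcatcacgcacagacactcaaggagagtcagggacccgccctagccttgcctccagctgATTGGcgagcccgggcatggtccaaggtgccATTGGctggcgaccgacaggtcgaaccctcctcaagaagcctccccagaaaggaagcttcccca
Msmo1: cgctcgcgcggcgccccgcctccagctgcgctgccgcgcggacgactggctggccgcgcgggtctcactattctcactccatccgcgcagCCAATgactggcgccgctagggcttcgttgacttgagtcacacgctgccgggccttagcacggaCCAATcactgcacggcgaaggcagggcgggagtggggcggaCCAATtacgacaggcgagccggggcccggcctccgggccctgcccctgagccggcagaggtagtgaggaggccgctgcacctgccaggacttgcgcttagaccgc
Fasn: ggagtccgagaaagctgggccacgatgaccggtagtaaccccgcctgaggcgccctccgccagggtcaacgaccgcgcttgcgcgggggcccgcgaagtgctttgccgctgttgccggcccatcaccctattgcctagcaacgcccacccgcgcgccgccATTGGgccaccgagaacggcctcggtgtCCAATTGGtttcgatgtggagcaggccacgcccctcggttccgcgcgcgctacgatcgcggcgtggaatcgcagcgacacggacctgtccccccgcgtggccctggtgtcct
The window of Hmgcs1 held 4 CCAAT matches and the sterol element-like TCACCCCAC. The window of Idi1 held 2 CCAAT matches, both in its last stretch before the start, that of Msmo1 held 3, and that of Fasn held 3, of which 2 overlap in CCAATTGG.

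RefSeq windows were available for 30 of the 37 members, 39 windows in all since some genes have several annotated starts, and none was used for Fdps, Fdft1, Sqle, Stard4, Scd1, Scd2 or Fads1. Each of the 15 sterol enzyme genes with a window had at least 1 CCAAT match, in 15 of their 18 windows (83.3%). Of the 17492 protein-coding genes with a window, 42.32% had a CCAAT match, as did 37.41% of all 32851 windows of the same length. CCAAT stood in 54.5% of the 11 windows of regulators and sterol handling genes and in 60.0% of the 10 windows of fatty acid enzymes. TCACNCCAC was found, on both strands searched, in 1 member, Hmgcs1, and in 1.24% of all windows. The E-box CACGTG, a palindrome that SREBP-1 can also bind, stood in 17.9% of member windows and 7.15% of all windows. The windows of Scap overlap and hold the same E-box, so the member share counts that site in each of them. These matches describe letters in a window of 300 bases, and a window without a match says nothing about the factor. The overlap named for Fasn is the only one between matches within a member window.

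**Figure D1:**
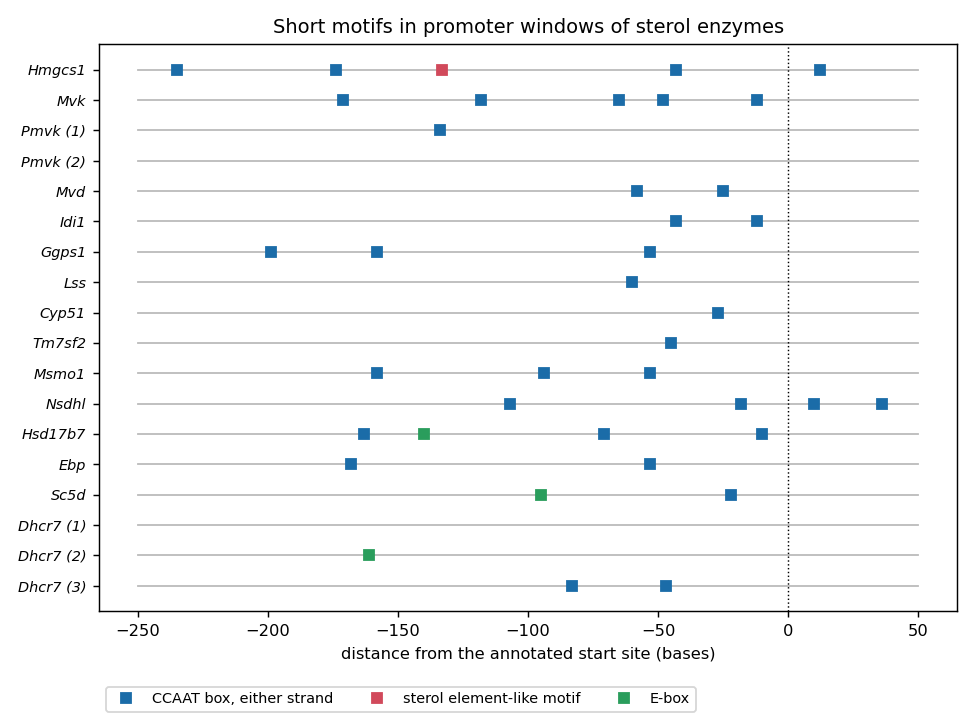
Positions of motif matches in the promoter windows of 15 sterol enzyme genes, with the distance of the centre of each match from the annotated start in bases on the horizontal axis and 1 line per window (numbers in parentheses are alternative starts). Blue squares are CCAAT on either strand, the red square is the sterol element-like motif of Hmgcs1 and green squares are E-boxes, and each of the 15 genes has at least 1 blue square.

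The libraries held between 71154026 and 83576494 counts, and the members had between 289 and 60197 counts in a library. Control 3 stood apart from its group, since its log CPM correlated across genes at 0.956 and 0.955 with Control 1 and Control 2, which correlated with each other at 0.980. The podocyte marker Nphs1, which encodes nephrin of the slit diaphragm, was present in every library. Summed over 10 markers, podocyte transcripts held 0.0618% ± 0.00403 of the counts in DKD and 0.0929% ± 0.0183 in Control (SD, n = 3 each; exact permutation p = 0.1, two-sided, the smallest possible). Tubule RNA was present too, with 10 proximal tubule markers at 1.32% ± 0.472 in DKD and 2.40% ± 0.746 in Control (exact permutation p = 0.1). All 10 proximal tubule markers had a negative log2 fold change, 2 of them past the threshold (Slc5a12 and Slc5a2), and the summed share ran from 0.816% to 1.75% in DKD and from 1.86% to 3.25% in Control. The share was lowest in DKD 3 and highest in Control 3. Negative log2 fold changes were found for 9 of 10 podocyte, 7 of 8 endothelial and 6 of 7 mesangial markers, and of these the angiotensin receptor gene Agtr1a passed the threshold (−1.07, adjusted p 0.0360). Among 7 markers of later nephron segments (loop, distal tubule, collecting duct) 5 were negative and 2 positive. They included the water channel gene Aqp2, at 600.5 ± 122 CPM in DKD and 199 ± 111 CPM in Control (adjusted p 0.104), and the anion exchanger gene Slc4a1, at 22.5 ± 1.03 CPM in DKD and 43.1 ± 10.9 CPM in Control (adjusted p 0.0592), both with no overlap between groups. Of 8 leukocyte markers 3 were negative and 5 positive. Of 8 dividing-cell genes 3 rose in DKD (Mki67, Birc5 and Cdca3). Of 9 adrenal cortex genes Cyp11b1 and Cyp11b2 were at 0 in all 6 libraries, but 4 of the 9 had enough counts to be tested. Star had 173 to 410 counts and Akr1b7 225 to 311 counts over the 6 libraries. Cyp11a1 had 0 to 8 counts, Cyp21a1 0 to 10 and Nr5a1 0 to 9, too few to be tested. In such bulk samples, fewer cells of a type and less RNA per cell cannot be told apart, and the part of these cell types in the values below was not tested unless a value says otherwise.

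Most of the 37 genes had lower mean levels in DKD glomeruli, but the test called 1 of them. Idi1, which encodes the isomerase that makes dimethylallyl diphosphate for isoprenoid and sterol synthesis, fell in DKD. Of the 37 log2 fold changes (DKD over Control) 32 were negative and 5 positive, with a median of −0.54, where 49.75% of all 19717 genes tested were negative with a median of 0.00. The quasi-likelihood test of edgeR with Benjamini-Hochberg adjustment over all genes called 1 member lower and 0 higher at an adjusted p under 0.05, against 0.431% of all genes called lower and 0.725% called higher. At an unadjusted p under 0.05 there were 18 members lower and 0 higher in DKD (48.65% lower), against 10.9% of all genes lower and 11.8% higher. The groups did not overlap, with DKD the lower, for 15 members, and with DKD the higher for 0, against 15.2% and 15.5% of all genes. The unadjusted and non-overlapping shares of the members thus lay above those of all genes on the lower side, while the adjusted call rested on a single gene. Such shares were not particular to the members. At that unadjusted p, 70% of podocyte, 60% of proximal tubule and 50% of endothelial markers were lower, and 70%, 60% and 37.5% did not overlap. The unadjusted share was 28.57% for mesangial markers and 14.29% for later nephron segments. It was 0% for leukocyte, adipocyte, adrenal cortex and dividing-cell genes.

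The number of calls moved with the method and with single libraries. DESeq2 called 16 members, all lower in DKD, where it called 6.2% of 18167 genes lower and 7.46% higher, and limma-voom called 1, where it called 0.396% lower. Without Control 3, edgeR called 9 members, all lower (0.736% of 20515 genes). Leaving out any one of the other 5 libraries gave 0 member calls, but those fits called few genes of any kind: 4 without DKD 1, 10 without DKD 3, 1 without Control 1 and 13 without Control 2. The exception was the fit without DKD 2, with 298 of 20449 genes called, 117 of them lower.

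**Figure D2:**
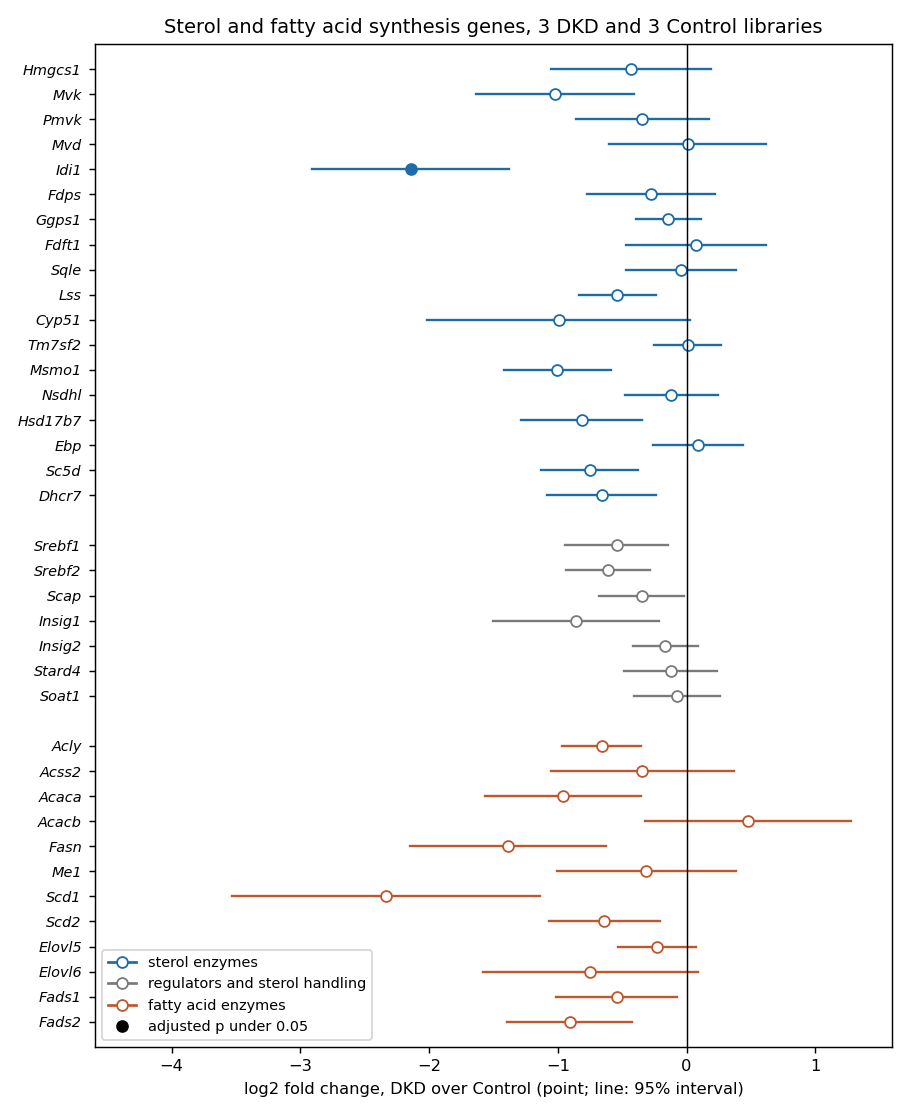
Log2 fold change of each member, DKD over Control, as a point with its 95% interval from the edgeR fit, grouped as sterol enzymes (blue), regulators and sterol handling genes (grey) and fatty acid enzymes (orange). Of the 37 points 32 lie left of 0, and the filled point, Idi1, is the one with an adjusted p under 0.05.

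Among the 18 sterol enzymes 14 log2 fold changes were negative and 4 positive, with a median of −0.39. The edgeR test called 1 of them, DESeq2 7 and limma-voom 1, and 7 had an unadjusted p under 0.05, all lower in DKD. Of all genes tested, edgeR called 0.431% lower, DESeq2 6.2% and limma-voom 0.396%. At that unadjusted p by edgeR 10.9% of all genes were lower, against 38.89% of the sterol enzymes. The sum of the 18 enzymes took 0.0770%, 0.0883% and 0.0670% of the counts in DKD 1 to 3, against 0.102%, 0.120% and 0.121% in Control 1 to 3. The sum, as a share of library totals without TMM scaling, thus separated the groups. Single enzymes did so in 7 cases on TMM-scaled CPM (38.89%, against 15.2% of all genes with DKD the lower). The scales differ, since with library totals all 18 sterol enzymes had negative log2 fold changes.

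The mevalonate steps come first. Hmgcs1, the cytosolic synthase that builds HMG-CoA, was the most abundant sterol enzyme per length, at 65.7 ± 10.5 in DKD and 88.5 ± 30.7 in Control (CPM per kilobase of exon, mean ± SD, n = 3). Its log2 fold change was −0.43 ± 0.27 (SE; adjusted p 0.383), and it was −0.14 without Control 3, the library with the highest level of it. Mvk, mevalonate kinase, had 4.32, 7.34 and 5.24 CPM in DKD 1 to 3, against 12.7, 13.0 and 8.68 CPM in Control 1 to 3. Each DKD library lay below each Control library for Mvk, and the closest pair was DKD 2 and Control 3. The log2 fold change of Mvk was −1.02 ± 0.26, with an adjusted p of 0.0895. The kinase and decarboxylase that follow, Pmvk and Mvd, had log2 fold changes of −0.34 ± 0.22 and 0.01 ± 0.26, with overlapping groups. Mvd ran from 31.6 to 48.1 CPM in DKD and from 31.4 to 56.5 CPM in Control, and its sign depended on the setting.

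Idi1 stands next, at the entry to the isoprenoids. It had 11.5, 17.4 and 11.7 CPM in DKD 1 to 3, against 37.9, 53.9 and 87.8 CPM in Control 1 to 3. The highest DKD library lay well below the lowest Control library, and the Control libraries differed more among themselves than the DKD libraries did. The mean was 13.5 ± 3.32 CPM in DKD and 59.8 ± 25.5 CPM in Control, and the log2 fold change was −2.14 ± 0.33 (95% interval −2.91 to −1.38), with an adjusted p of 0.0391. Control 3 held the highest Idi1 level and also the highest proximal tubule share, and without that library the log2 fold change was −1.76 with an adjusted p of 0.0241. Without any one of the other 5 libraries the adjusted p lay between 0.0532 (without DKD 2) and 0.150 (without DKD 1), with log2 fold changes between −2.39 and −2.04, so the call was lost each time while the value stayed near −2.14. The adjusted p was 0.0738 with no filter on low counts, and over all alternatives it ran from 3.01e-08 with DESeq2 to 0.150. Of the 31-base words of Idi1 transcripts, 18.8% also occur in other genes, most of them in the gene model Gm13502, and 9.22% of its exonic bases lie opposite Gm48574, so some reads may be assigned either way.

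The isoprenoid branch enzymes were less separated. Fdps, which makes farnesyl diphosphate, had a log2 fold change of −0.28 ± 0.21, and Ggps1, which makes the geranylgeranyl diphosphate used to anchor proteins in membranes, −0.14 ± 0.11 (95% interval −0.39 to 0.11). For Fdps, the gene model Gm43738 overlaps 26.7% of the exonic bases on the same strand. The next enzymes commit carbon to sterols. Fdft1, squalene synthase, had 0.07 ± 0.23, with 18.3% of its exonic bases opposite Ctsb, and Sqle, squalene epoxidase, had −0.04 ± 0.18 (95% interval −0.47 to 0.38). The groups overlapped for these 4 genes.

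The ring-forming and ring-modifying enzymes held most of the separated members. Lss, which closes squalene epoxide into lanosterol, had 17.8, 19.6 and 15.3 CPM in DKD 1 to 3, against 25.6, 26.6 and 24.3 CPM in Control 1 to 3. Its groups were tight and apart, with a log2 fold change of −0.54 ± 0.13 (adjusted p 0.0775). Cyp51, the lanosterol demethylase, had 64.3, 107 and 32.8 CPM in DKD 1 to 3, against 97.1, 116 and 193 CPM in Control 1 to 3. Its groups overlapped, since DKD 2 lay above Control 1, and its extremes were DKD 3 and Control 3, the libraries with the lowest and highest proximal tubule shares. The log2 fold change of Cyp51 was −0.99 ± 0.44, with an adjusted p of 0.231, and it was −0.65 without Control 3. Tm7sf2, a sterol reductase, was the steadiest member, with levels from 14.5 to 15.1 CPM in DKD and from 14.7 to 15.0 CPM in Control, and a 95% interval of −0.25 to 0.27 for its log2 fold change.

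Msmo1, the methylsterol monooxygenase that begins removal of the methyl groups of the ring, had 13.9, 14.3 and 16.5 CPM in DKD 1 to 3, against 31.2, 35.5 and 23.1 CPM in Control 1 to 3. The groups did not overlap, and Control 3 was the lowest of its group. The log2 fold change was −1.005 ± 0.18 with an adjusted p of 0.0519, and without Control 3 it was −1.16 with an adjusted p of 0.0193. Nsdhl, a later enzyme of that removal, had −0.12 ± 0.16 with overlapping groups. Hsd17b7, the ketoreductase that completes the cycle, had 16.1, 20.8 and 13.8 CPM in DKD 1 to 3, against 27.9, 36.2 and 25.1 CPM in Control 1 to 3. Its groups did not overlap, and the log2 fold change was −0.82 ± 0.20 with an adjusted p of 0.0826.

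The last steps give cholesterol itself. Ebp, the isomerase that moves the ring double bond, had a log2 fold change of 0.09 ± 0.15 with overlapping groups. Sc5d, the lathosterol oxidase, had 34.3, 31.4 and 31.3 CPM in DKD 1 to 3, against 46.2, 49.2 and 67.7 CPM in Control 1 to 3. Its DKD libraries were close to each other and below all Control libraries, with a log2 fold change of −0.75 ± 0.16 (adjusted p 0.0640). Dhcr7, the reductase of the final step in one route, had 8.95, 13.4 and 12.2 CPM in DKD 1 to 3, against 19.2, 16.1 and 19.2 CPM in Control 1 to 3. The groups did not overlap, and the log2 fold change was −0.66 ± 0.18 with an adjusted p of 0.0999. Steps with separated groups were thus scattered along the route, from Mvk and Idi1 through Lss, Msmo1 and Hsd17b7 to Sc5d and Dhcr7.

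**Figure D3:**
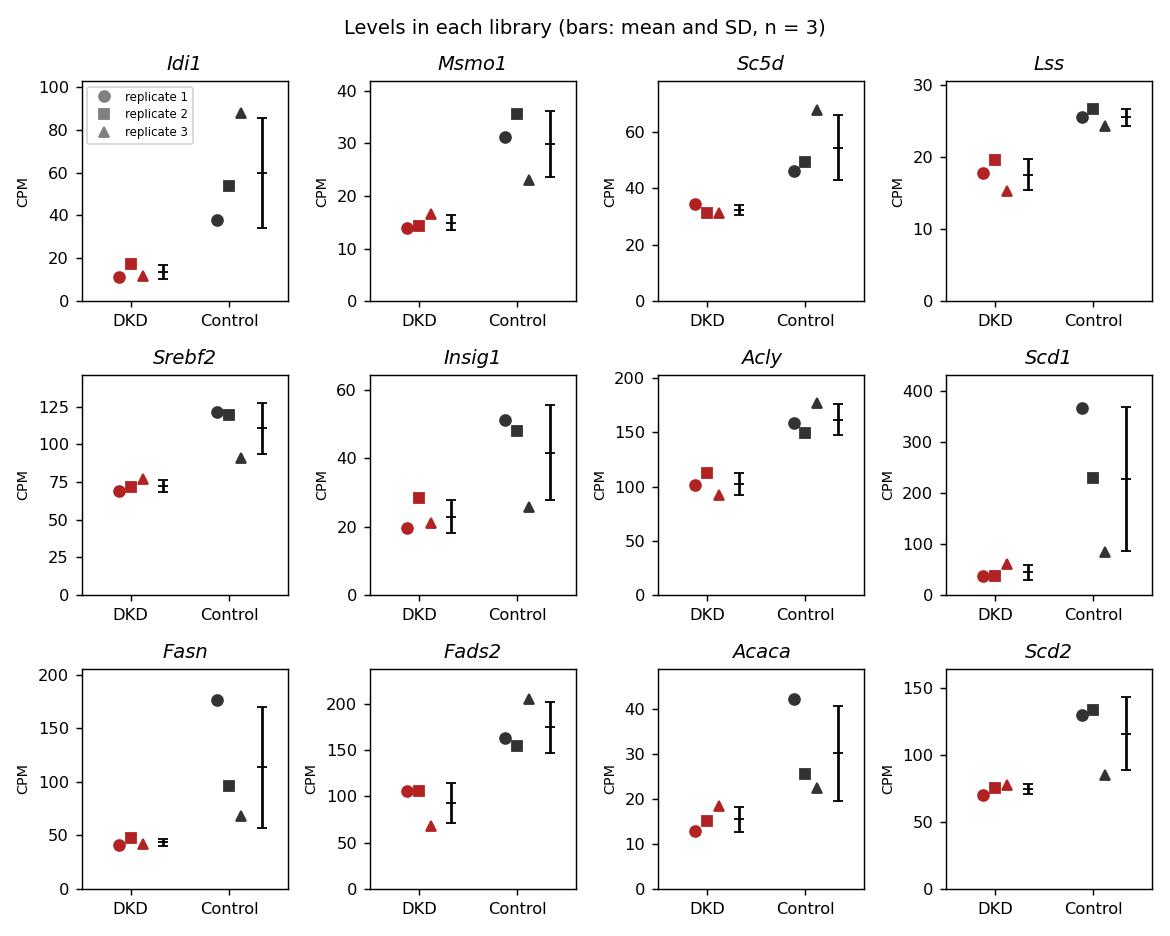
Levels of 12 members in each library, in TMM-scaled CPM, with DKD left of Control, 1 symbol per replicate number, and bars for the mean and SD of 3 libraries. For Idi1 the DKD libraries reach 17.4 CPM and the Control libraries begin at 37.9 CPM, while for Scd1 Control 3, at 84.7 CPM, lies far closer to the DKD libraries than Control 1 and Control 2.

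The 7 regulators and sterol handling genes all had negative log2 fold changes, with a median of −0.35. The edgeR test and limma-voom called 0 of them, DESeq2 called 3 lower, and 4 had an unadjusted p under 0.05, all lower in DKD. DESeq2 called 6.2% of all genes lower. At that unadjusted p by edgeR 10.9% of all genes were lower, against 57.14% of these 7. Srebf2, the regulator of sterol synthesis, had 69.0, 71.5 and 77.0 CPM in DKD 1 to 3, against 121, 119 and 91.2 CPM in Control 1 to 3. Its groups did not overlap, with Control 3 nearest to the DKD libraries, and its log2 fold change was −0.61 ± 0.14 with an adjusted p of 0.0739. Srebf1, the regulator of fatty acid synthesis, had 28.0, 29.1 and 34.25 CPM in DKD 1 to 3, against 47.7, 51.0 and 34.23 CPM in Control 1 to 3. DKD 3 and Control 3 had almost the same Srebf1 level, and the log2 fold change was −0.54 ± 0.17 with an adjusted p of 0.130.

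Scap, the escort of both precursors, had 68.5, 81.9 and 58.5 CPM in DKD 1 to 3, against 88.5, 85.5 and 91.8 CPM in Control 1 to 3. The groups did not overlap but DKD 2 came close to Control 2, and the log2 fold change was −0.35 ± 0.14 with an adjusted p of 0.202. Insig1, which retains SCAP and is itself an SREBP target, had 19.5, 28.4 and 21.0 CPM in DKD 1 to 3, against 51.4, 48.0 and 25.7 CPM in Control 1 to 3. Control 3 lay within the DKD range, and the log2 fold change was −0.86 ± 0.28 with an adjusted p of 0.135. Insig2, the other retention protein, had 43.0, 47.2 and 41.3 CPM in DKD 1 to 3, against 46.3, 48.1 and 53.2 CPM in Control 1 to 3. Its groups overlapped, and the log2 fold change was −0.17 ± 0.11 with an adjusted p of 0.406. Without Control 3 the edgeR test called Srebf1 (−0.70, adjusted p 0.0496), Srebf2 (−0.73, adjusted p 0.0295) and Insig1 (−1.11, adjusted p 0.0366) lower in DKD. Stard4, a sterol transfer protein, had a log2 fold change of −0.12 ± 0.15 and Soat1, which esterifies cholesterol for storage, −0.08 ± 0.14, with overlapping groups.

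The 12 fatty acid enzymes had a median log2 fold change of −0.65, with 11 negative values and 1 positive. The edgeR test and limma-voom called 0 of them, DESeq2 called 6 lower, and 7 had an unadjusted p under 0.05, all lower in DKD. DESeq2 called 6.2% of all genes lower. At that unadjusted p by edgeR 10.9% of all genes were lower, against 58.33% of these 12. Together they took 0.112%, 0.133% and 0.105% of the counts in DKD 1 to 3, against 0.213%, 0.188% and 0.183% in Control 1 to 3. Groups did not overlap for 6 of the 12, named next with values in each library.

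Acly, the ATP citrate lyase that supplies cytosolic acetyl-CoA to both branches, had 102, 113 and 92.3 CPM in DKD 1 to 3, against 159, 149 and 177 CPM in Control 1 to 3. The groups were well apart and of similar spread, with a log2 fold change of −0.66 ± 0.13 (adjusted p 0.0573). Acss2, which makes acetyl-CoA from acetate, had −0.34 ± 0.30 with overlapping groups, and −0.03 without Control 3, where its level was highest. Acaca, the acetyl-CoA carboxylase that makes malonyl-CoA for synthesis, had 12.8, 15.1 and 18.4 CPM in DKD 1 to 3, against 42.2, 25.6 and 22.4 CPM in Control 1 to 3. Its groups did not overlap, and the log2 fold change was −0.96 ± 0.26 with an adjusted p of 0.0975, although 33.4% of its 31-base words also occur in other genes, 31.7% in the gene model Gm5182. Acacb, the carboxylase isoform known for restraining fatty acid oxidation, was the one member of the branch with a positive value, 0.48 ± 0.34. The Acacb value rested on DKD 3, at 70.2 CPM, since DKD 1 and DKD 2 had 30.0 and 33.8 CPM, against 39.4, 32.6 and 24.3 CPM in Control 1 to 3.

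Fasn, the synthase that builds palmitate, had 40.6, 47.5 and 42.4 CPM in DKD 1 to 3, against 177, 96.5 and 68.1 CPM in Control 1 to 3. The DKD libraries were close together while the Control libraries spread widely, and the log2 fold change was −1.39 ± 0.33 with an adjusted p of 0.0769. Me1, the malic enzyme that supplies NADPH, was the most abundant member per length, at 110.3 ± 13.5 in DKD and 137 ± 60.2 in Control (CPM per kilobase of exon). Its log2 fold change was −0.31 ± 0.30, and 0.11 without Control 3, where it stood at 795.5 CPM, against 365 to 462 CPM in the other 5 libraries. The gene model Gm7049 shares 28.6% of the 31-base words of Me1.

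The desaturases and elongases shape the chains that Fasn makes. Scd1, the stearoyl-CoA desaturase that makes oleate and palmitoleate, had 36.6, 36.5 and 61.9 CPM in DKD 1 to 3, against 367, 229 and 84.7 CPM in Control 1 to 3. Control 3 lay nearer to DKD 3 than to the other Control libraries, and the groups still did not overlap. The log2 fold change of Scd1 was −2.33 ± 0.51 (95% interval −3.53 to −1.14), the most negative of all 37, with an adjusted p of 0.0677. Scd2, its relative, had 70.1, 75.7 and 77.8 CPM in DKD 1 to 3, against 130, 134 and 84.7 CPM in Control 1 to 3. The DKD libraries again lay together and below, and the log2 fold change was −0.64 ± 0.18 with an adjusted p of 0.110. Fads2, the desaturase that opens the route to long polyunsaturated chains, had 105, 105 and 68.1 CPM in DKD 1 to 3, against 163, 154 and 206 CPM in Control 1 to 3. Its groups did not overlap, and the log2 fold change was −0.91 ± 0.21 with an adjusted p of 0.0729.

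Fads1, the next desaturase of that route, had −0.54 ± 0.20 with overlapping groups. Elovl6, which lengthens palmitate, had −0.75 ± 0.36, and Elovl5, which lengthens polyunsaturated chains, −0.23 ± 0.13, also with overlapping groups. Without Control 3 the edgeR test called Scd1 (−2.73, adjusted p 0.0193), Scd2 (−0.82, adjusted p 0.0228), Fasn (−1.65, adjusted p 0.0325) and Fads1 (−0.74, adjusted p 0.0465) lower in DKD, while Acly (adjusted p 0.0647) and Fads2 (0.0878) were not called.

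Fat cells make fatty acids at a high rate, and their markers were uneven between libraries. Adipoq, the adipocyte hormone gene, was at 0, 0 and 16.4 CPM in DKD 1 to 3, against 8.97, 6.03 and 0 CPM in Control 1 to 3. Cfd, Lep and Retn were likewise at 0 in DKD 1, DKD 2 and Control 3, and Plin1, Cidec and Ucp1 lay below 1 CPM there. The other markers were present in these libraries. In DKD 1, DKD 2 and Control 3, Fabp4 had 43.1, 65.0 and 21.5 CPM, Lipe 36.9, 38.0 and 22.5, and Plin4 4.75, 6.21 and 2.79. The markers thus differed on these libraries, and whether any fat cells were in them was not tested. The 10 adipocyte markers summed to between 0.00783% and 0.0433% of the counts in DKD and between 0.00425% and 0.0198% in Control. Of those 10 markers 9 had a positive log2 fold change, against 4 with limma-voom, 5 without Control 3 and 2 without DKD 3, so the direction of the list rested on single libraries. The smallest adjusted p among them by edgeR was 0.135. In the 3 libraries with Adipoq at 0, Scd1 stood at 36.6 and 36.5 CPM in DKD 1 and DKD 2, against 84.7 CPM in Control 3. Fasn stood at 40.6 and 47.5 CPM in the same DKD libraries, against 68.1 CPM in Control 3, and Elovl6 at 14.7 and 15.6 CPM, against 14.5 CPM. Where Adipoq was present, Scd1 stood at 61.9 CPM in DKD 3, against 367 and 229 CPM in Control 1 and Control 2. Fasn stood at 42.4 CPM in DKD 3, against 177 and 96.5 CPM, and Elovl6 at 21.55 CPM, against 40.7 and 31.9 CPM. Either way 2 libraries stand against 1, and Control 3 is the one that stood apart from its group. The part of fat cells in the fatty acid enzyme values was not tested.

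**Figure D4:**
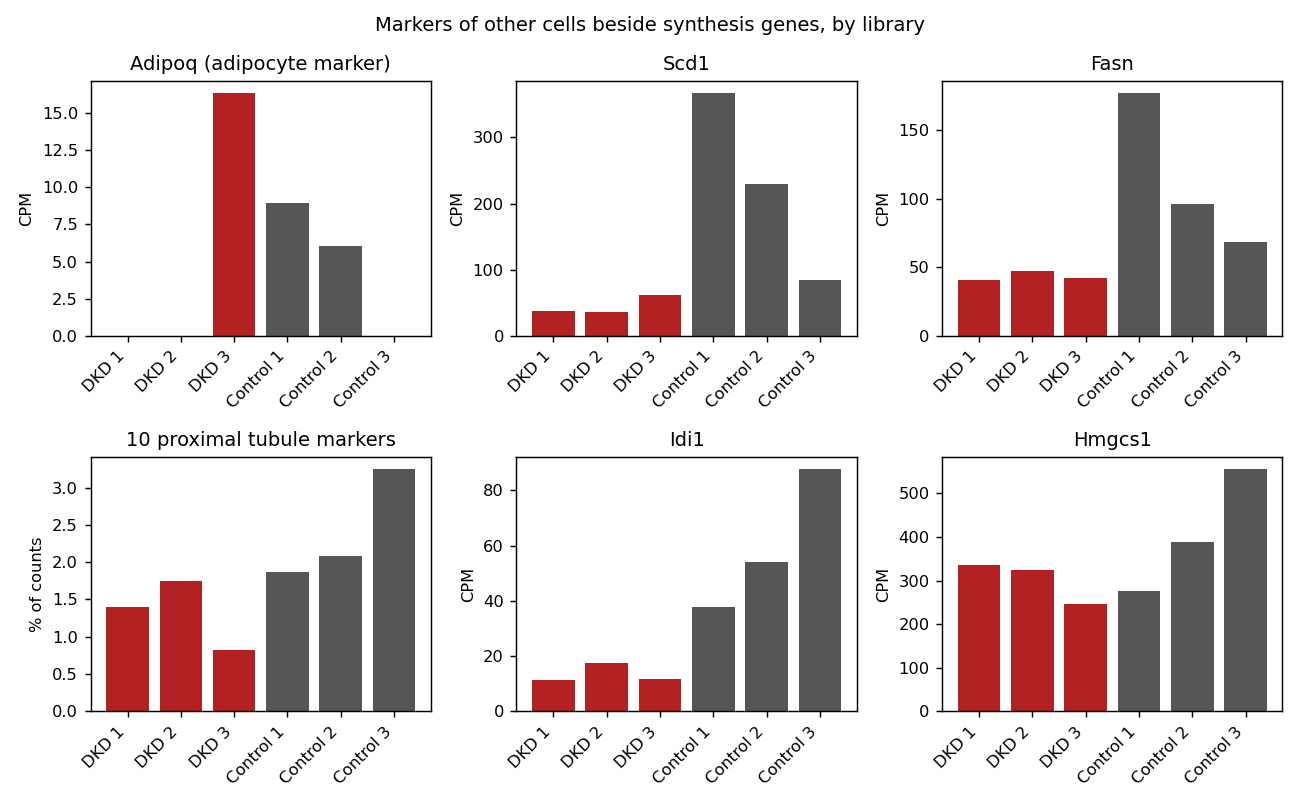
Markers of other cells (left column) beside synthesis genes (middle and right columns) in each library, with DKD in red and Control in grey. Axes are CPM except the proximal tubule panel, which gives the percentage of counts held by 10 markers. Adipoq is at 0 in DKD 1, DKD 2 and Control 3, and the proximal tubule share, Idi1 and Hmgcs1 are all highest in Control 3. Of the 18 sterol enzymes, 7 were highest among Control libraries in Control 3 and 9 were lowest there.

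Control 3 departed from the other Control libraries in opposite ways for different members. It was the highest Control library for 13 of the 37 members and the lowest for 21, with 7 and 9 of the 18 sterol enzymes, 2 and 4 of the 7 regulators, and 4 and 8 of the 12 fatty acid enzymes. Hmgcs1, Idi1, Cyp51, Acss2 and Me1 were highest in it, and Scd1, Fasn, Acaca, Elovl6 and Insig1 lowest. As the median over the members of log2 CPM minus the mean over 6 libraries, the fatty acid enzymes stood at −0.30, −0.27 and −0.29 in DKD 1 to 3, against 0.44, 0.29 and −0.02 in Control 1 to 3. The sterol enzymes stood at −0.19, −0.10 and −0.27 in DKD 1 to 3, against 0.19, 0.28 and 0.17 in Control 1 to 3. Control 3 thus lay with its group for the sterol enzymes and between the groups for the fatty acid enzymes.

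**Figure D5:**
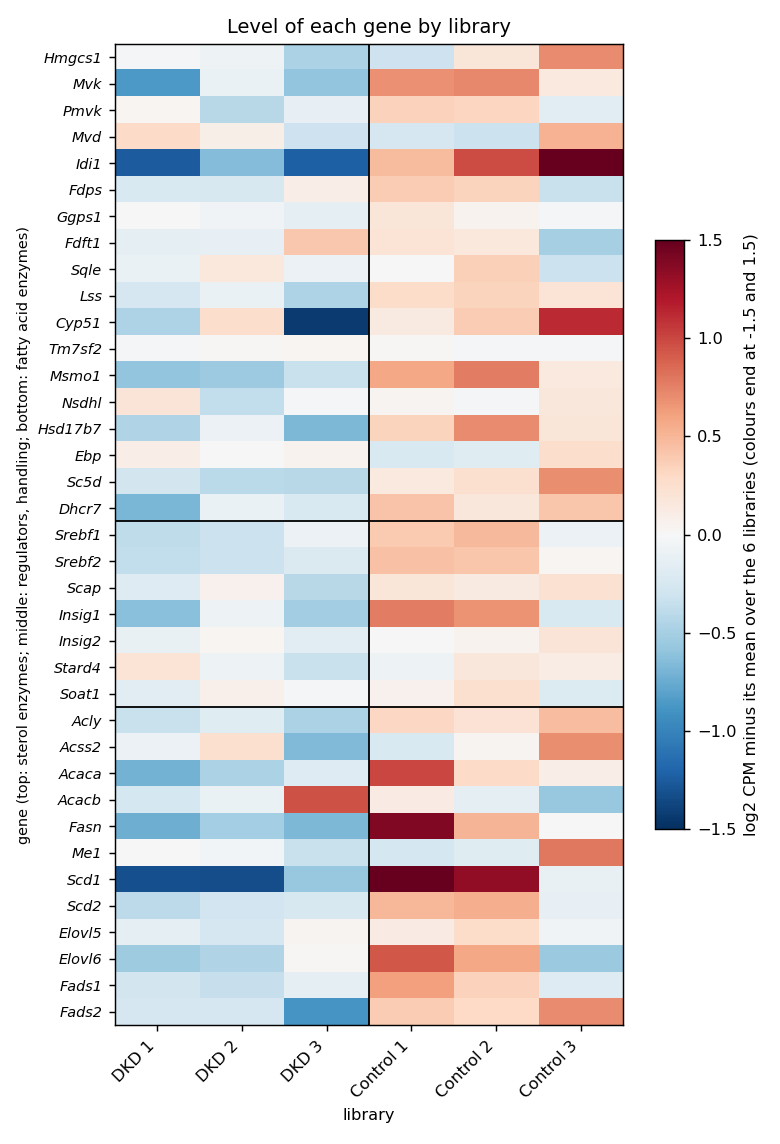
Each member by library, as log2 CPM minus its mean over the 6 libraries, with DKD left of Control and lines between sterol enzymes (top), regulators and sterol handling genes (middle) and fatty acid enzymes (bottom). Blue prevails in the DKD columns and red in Control 1 and Control 2, while Control 3 is red for Idi1, Cyp51 and Me1 and blue for Insig1 and Elovl6.

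Other genes of the same metabolism were listed for their function. Of 27 further sterol and isoprenoid genes (transporters, the SREBP proteases, ubiquinone and dolichol enzymes) edgeR and limma-voom called 0 and DESeq2 5, all lower, with 7 lower and 1 higher at an unadjusted p under 0.05 by edgeR and a median log2 fold change of −0.08, and 17 of the 27 values were negative. The smallest p belonged to Lipa, the lysosomal lipase that frees cholesterol from its esters, with 112, 107 and 103 CPM in DKD 1 to 3, against 209.6, 185 and 365 CPM in Control 1 to 3. The groups were apart, and the log2 fold change of Lipa was −1.24 ± 0.26 (adjusted p 0.0626). Erlin1, a membrane protein that takes part in sterol-regulated degradation in the endoplasmic reticulum, had 68.8, 75.7 and 48.9 CPM in DKD 1 to 3, against 100.2, 116 and 128 CPM in Control 1 to 3. Its groups did not overlap either, and its log2 fold change was −0.83 ± 0.19 (adjusted p 0.0702). Of 23 further fatty acid and glycerolipid genes 22 had enough counts, of which edgeR and limma-voom called 0 and DESeq2 2, both higher, with 2 lower and 3 higher at an unadjusted p under 0.05 by edgeR and a median of 0.05, and 9 of the 22 values were negative. Those with the smallest p had positive values, at 0.61 ± 0.15 for Elovl2, an elongase of polyunsaturated chains (adjusted p 0.0837), and 0.63 ± 0.19 for G6pdx, which supplies NADPH (adjusted p 0.123). Elovl2 had 32.7, 24.9 and 31.6 CPM in DKD 1 to 3, against 21.5, 19.9 and 17.1 CPM in Control 1 to 3, with no overlap. G6pdx had 55.0, 55.3 and 84.2 CPM in DKD 1 to 3, against 41.3, 47.1 and 37.6 CPM in Control 1 to 3, also with no overlap. At the unadjusted p 25.93% of the first list and 9.091% of the second were lower, against 10.9% of all genes, of which 11.8% were higher. No overlap with DKD the higher was found for 4 of the 22, against 15.5% of all genes. DESeq2 called 6.2% of all genes lower and 7.46% higher. The second list thus lay near the edgeR shares of all genes.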

How the data were processed

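RNA of glomeruli was measured in 3 DKD and 3 Control libraries, made, per the labels' protocols, from poly(A) RNA by a strand-marking (dUTP) method and read in pairs. The table that the authors deposited holds unnormalized whole-number counts for Ensembl genes. The submitters' processing notes name fastp, HISAT2, StringTie, edgeR and build GRCm39, without versions, annotation, strand setting or whether coverage estimates were converted to counts. Symbols were matched for 55141 identifiers and not for 260, with GENCODE M21 gene models on GRCm38, which also gave exonic lengths, overlaps and 31-base words shared between genes.

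Genes were kept with filterByExpr (minimum count 10), scaled by TMM and compared by edgeR's quasi-likelihood test (edgeR 4.0.16, R 4.3.3) in a model of group alone. The threshold was a Benjamini-Hochberg adjusted p under 0.05 over all 19717 genes. CPM values are TMM-scaled, ± beside a log2 fold change is its standard error, and log CPM used a prior count of 2. Shares of counts are of library totals without TMM scaling, and were compared by an exact permutation test over libraries. The biological coefficient of variation was 33.2%. On simulated data with 3 libraries per group (19159 genes tested), edgeR called 26 of 97 genes set to a log2 change of 1. It called 61 of 92 set to 2 and 6 of 18970 left unchanged, so a change of 1 was mostly missed in that simulation. The 200 genes to change were drawn from all genes tested, so these shares do not give the power for the members.

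The members and lists were chosen with earlier results of these data known. All members are named, with values in each library for those past the threshold, 5 regulators, and the 8 sterol and 6 fatty acid enzymes with the smallest p, and for the 2 lists of other pathway genes the 2 with the smallest p in each. Marker genes are named as examples chosen after their values were seen. Alternatives were RLE and upper quartile factors, library totals, other filters, DESeq2 1.42.0, limma-voom (limma 3.58.1), robust dispersion, a replicate block, a trend on exonic length removed (5 degrees of freedom), and each library left out. One marker gene of a cell type list is not reported here by itself.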

Additional observations from a re-analysis of the deposited data

How the results depend on the processing

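Among sterol enzymes edgeR called 2 with RLE factors, library totals, a filter of 1 CPM in 3 libraries or the length trend removed, 0 with no filter and 7 with DESeq2, and 0 to 2 with 1 library left out. Among regulators and sterol handling genes DESeq2 called 3, and fits without 1 library called 0 to 3. Among fatty acid enzymes 1 was called with library totals or the 1 CPM filter and 6 with DESeq2, and 0 to 4 without 1 library. Over all genes 228 were called, against 516 with the 1 CPM filter, 56 with no filter, 2483 with DESeq2 and 1 to 386 without 1 library. Library totals moved the median of all genes to −0.13 and that of the sterol enzymes to −0.52, and split the calls over all genes into 174 lower and 101 higher, where TMM gave 85 and 143. Without 1 library the sterol median ran from −0.48 to −0.37 and the regulator median from −0.50 to −0.24. Whether the replicate numbers pair the libraries is not known. Same-number deviations correlated at −0.18, 0.066 and −0.22. These values cannot settle it, since the deviations of 3 libraries from their group mean sum to 0 and are tied to each other. With the replicate block 0 sterol enzymes and 0 genes in all were called. Values near 0 changed sign. Mvd was −0.0027 with RLE factors, −0.0027 with DESeq2, −0.085 with library totals, −0.16 with the length trend removed, and −0.14 to 0.33 without 1 library. Fdft1 was −0.087 and Tm7sf2 −0.12 with library totals, and they were −0.13 to 0.19 and −0.011 to 0.027 without 1 library. Ebp was −0.025 with library totals, −0.066 with the length trend removed and −0.0013 to 0.26 without 1 library. Sqle was 0.022 and Soat1 0.091 with the length trend removed, and they were −0.19 to 0.14 and −0.19 to 0.029 without 1 library. Without 1 library Nsdhl was −0.25 to 0.0054, Acacb −0.0086 to 0.70 and Me1 −0.50 to 0.11. The cause of these shifts was not tested. Across 19684 genes, which are not independent replicates, exonic length and log2 fold change had a Spearman rho of −0.249. With 3 libraries a group, changes of small size in single members could have been missed.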
